A study of Mus musculus with 16 samples.

Results

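The genes of the nuclear RNA polymerases were followed in mouse embryonic stem cells (ESCs) in which RAM, the activating subunit of the mRNA cap methyltransferase, had been reduced by siRNA. The genes were chosen by symbol, taking every gene whose symbol begins with Polr1, Polr2 or Polr3, and keeping those with a mean of at least 10 counts over the 8 cytoplasmic libraries. Of 46983 genes listed, 29 had such a symbol and 28 were kept: 5 Polr1, 13 Polr2 and 10 Polr3 genes. The gene left out, Polr2k-ps, a pseudogene of Polr2k, had a mean of 1.38 counts.

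RNA came from 46C ESCs, a line of the 129Ola strain that carries GFP at the Sox1 locus, grown on gelatin with LIF. Cells were transfected with an siRNA to RAM or with a control siRNA that has no target, and were harvested after 48 hr, following a short treatment with cycloheximide, which holds ribosomes on mRNA. From each extract, part was kept as cytoplasmic input and the rest was separated on a sucrose gradient, where fractions 17 to 22 were pooled as polysomes, the mRNAs carrying several ribosomes. This gave 4 groups of 4 libraries: input and polysomes, each with control or RAM siRNA. All cells were of a single line, and the paper's figure for these replicates names a single RAM siRNA. Effects of reduced RAM and other effects of that siRNA cannot be told apart here. The rRNA-depleted libraries hold 16647523 to 20147833 counts, and levels below are in CPM, counts scaled to library size by TMM factors within each fraction. The paper describes 4 biological replicates, done as separate experiments. The labels do not state this, so reading the spread between libraries as one between experiments rests on the paper.

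RNA polymerase I transcribes the large ribosomal RNA precursor, RNA polymerase II transcribes mRNA precursors and many small nuclear RNAs, and RNA polymerase III makes tRNA, 5S rRNA and other short RNAs. In each enzyme the largest and second largest subunits form the active center, and smaller subunits surround them. Some small subunits, encoded by Polr2e, Polr2f, Polr2h, Polr2k and Polr2l, are part of all 3 enzymes, and Polr1c and Polr1d serve both polymerase I and polymerase III. The cap that RAM helps to methylate is added to transcripts of polymerase II. ESCs are known for the polymerase III subunit encoded by Polr3g, whose sister gene Polr3gl is used widely in differentiated cells.

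The knockdown was seen at its target. Ramac, the gene of RAM, was at 11.0, 10.5, 11.2 and 11.98 CPM in control input and at 3.22, 2.76, 3.24 and 3.26 CPM in RAM siRNA input. The siRNA left 27.9% of the control mean in input and 17.3% in polysomes, and the libraries did not overlap in either fraction (exact two-sided permutation p = 0.0286 in each, the smallest that 4 against 4 libraries allow). Marker levels in this paragraph were scaled to library size alone, without TMM factors. All 8 stem cell markers examined were above 1 CPM in input. Their summed level was 2972 to 3219 CPM in control and 2501 to 2708 CPM in RAM siRNA input, and 3 of them were called lower (7 with the replicate block described below). Of all genes tested in input, 5.94% were called lower and 6.95% higher, and with the block 19.0% and 20.3%. The 5 primitive endoderm markers summed to 16.6 to 18.0 CPM in control and 21.1 to 28.9 CPM in RAM siRNA input, with 2 called higher and Gata4 too low to be tested. The summed levels of neural (77.1 to 97.0 CPM), fibroblast (17.9 to 29.2 CPM), mesoderm (11.8 to 17.1 CPM) and trophectoderm (3.41 to 5.08 CPM) markers overlapped between the input groups, and Cdx2, T and Col1a1 were too low to be tested. Of these markers, Nes and Pdgfra were called higher and Pax6 and Eomes lower with the block, and none without it. The part of these shifts in the results on polymerase genes was not tested. In bulk RNA, fewer cells of a type and less RNA per cell cannot be told apart.

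In control input, the Polr2 genes, among them the 5 subunits common to all 3 enzymes, had the highest median level per length. Polr2m is counted among them but is classed as associated with polymerase II, not as a subunit of it. Levels were divided by the length of all annotated exons of a gene, so a gene with long annotated variants reads low. The median was 43.1 CPM per kb for the 13 Polr2 genes, 19.1 for the 5 Polr1 genes and 10.6 for the 10 Polr3 genes, against 6.35 for all tested genes with a length. Polr2j, a small subunit of polymerase II, stood first at 57.5 ± 5.08 CPM per kb (SD, n = 4), followed by Polr2g (48.9 ± 1.25), which encodes a subunit of the stalk of the enzyme. Below them, Polr2h, Polr2m, Polr2d, Polr2b and Polr2i lay between 43.1 and 46.8 CPM per kb with SDs of 1.08 to 2.97, so that neighbours in this order differed by less than their spread. Polr3d (6.73 ± 0.16) and Polr1e (6.32 ± 0.73) were near the low end. The groups of genes were not of a single level, as Polr2l, Polr2k and Polr2c (12.9 to 15.3 CPM per kb) lay between Polr3d and Polr3g (16.1 ± 2.07), and Polr2a lay just above Polr3g (16.4 ± 4.94). Polr1c (39.4) and Polr1d (34.3), which polymerase I shares with polymerase III, exceeded Polr1a, Polr1b and Polr1e, which serve polymerase I alone. The latter lay between 6.32 and 19.1 CPM per kb. No level per kb was computed for polymerase I subunits under other symbols.

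**Figure D1:**
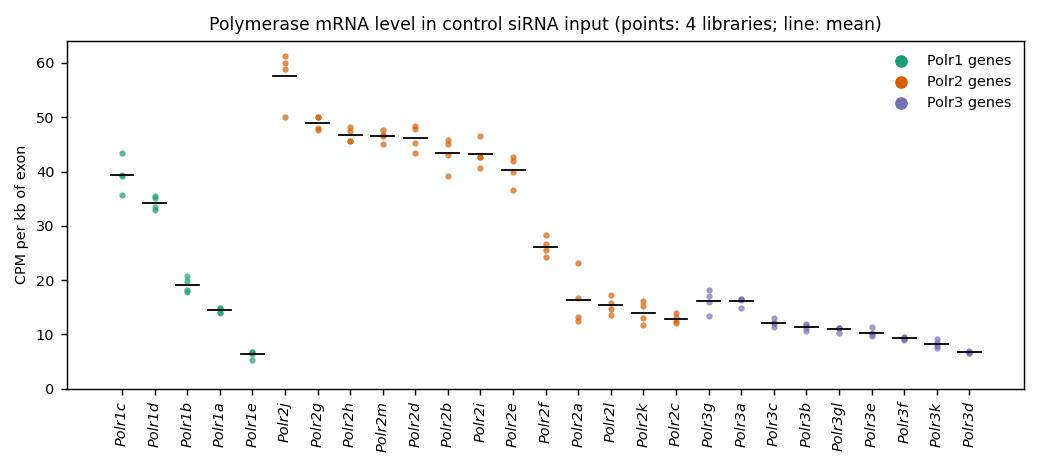
Level of 27 polymerase genes in control siRNA input, in CPM per kb of annotated exon (vertical axis, linear from 0), by gene (horizontal axis, ordered within each polymerase). Points are the 4 libraries and lines their means; most Polr2 genes sit above 40 CPM per kb, while the Polr3 genes shown sit between 6.73 (Polr3d) and 16.1 (Polr3g).

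To ask which mRNAs of the 3 enzymes differed after RAM siRNA, RAM siRNA input was compared with control input. Polymerase genes were called no more often than all tested genes. Without regard to the pairing of replicates, Polr3g and Polr3f of polymerase III passed the test, and when replicates were paired 4 Polr2 and 3 further Polr3 genes passed as well. Polr3g, the ESC form of a polymerase III subunit, was higher by 0.48 on the log2 scale, and Polr3f, a subunit that joins the enzyme to its initiation factors, fell by 0.33. Tested across 12805 genes without regard to replicate number, the polymerase genes included 1 lower and 1 higher (adjusted p under 0.05), when 5.94% of all tested genes were lower and 6.95% higher. Replicates with the same number varied together in these data, and a fit with the replicate number as a block called 4 of 28 genes lower and 5 higher, against 19.0% and 20.3% of all genes. The genes called with the block were Polr2a, Polr2b, Polr3b and Polr3f on the lower side and Polr2e, Polr2k, Polr3a, Polr3e and Polr3g on the higher. Taken over the 28 genes, no share exceeded that of all genes.

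By polymerase, the block called 0 of 5 Polr1 genes, 4 of 13 Polr2 genes (2 lower, 2 higher) and 5 of 10 Polr3 genes (2 lower, 3 higher). Of all genes, 19.0% were lower and 20.3% higher. The Polr1 and Polr2 shares were below these. The Polr3 share was near that of all genes on the lower side and above it on the higher side. These differences were not tested. The median log2 fold change was -0.01 for Polr1 (SD over the 4 same-numbered pairs 0.060), -0.01 for Polr2 (0.077) and -0.02 for Polr3 genes (0.050), beside 0.00070 for all genes tested. These medians differed by less than their spread over pairs. The width of the changes differed more: Polr1 genes lay between -0.07 (Polr1a) and 0.08 (Polr1d), Polr2 genes between -0.29 (Polr2a) and 0.24 (Polr2k), and Polr3 genes between -0.33 (Polr3f) and 0.48 (Polr3g). Twistnb (-0.21) and Znrd1 (-0.14), polymerase I subunits under other symbols described below, lay outside the Polr1 range, and Cd3eap (-0.05) lay within it. Whether the polymerases differ in this respect was not tested.

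**Figure D2:**
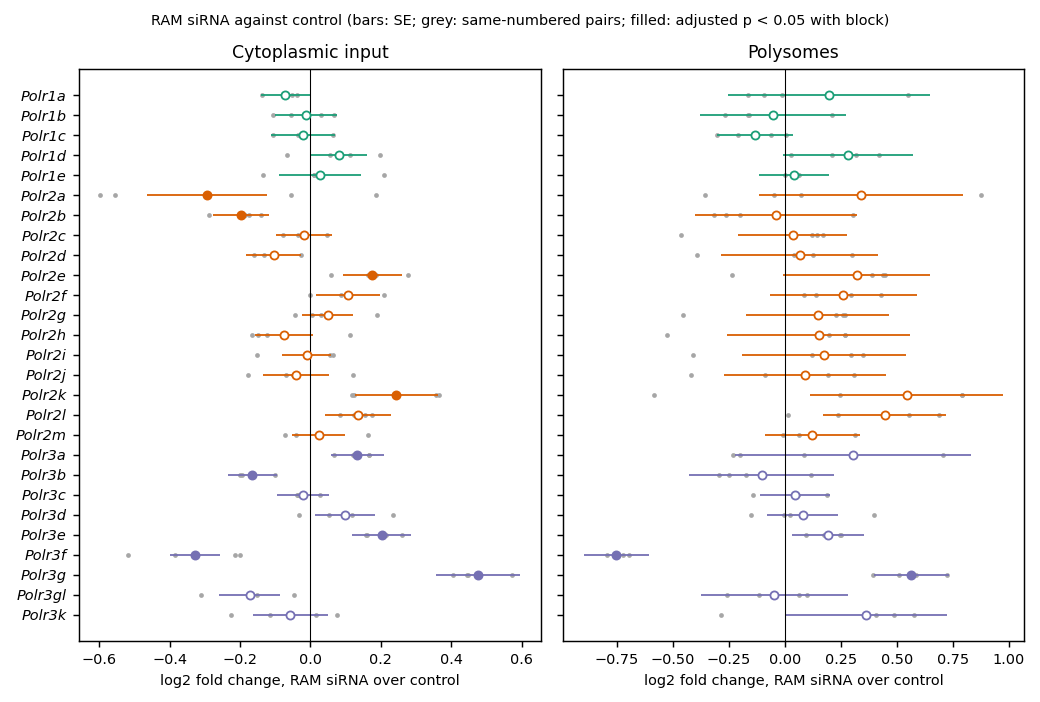
Log2 fold change of RAM siRNA over control (horizontal axes, which differ in range) for 27 polymerase genes (vertical axis) in input (left) and polysomes (right). Colored circles are the fits with their SE, grey points the 4 same-numbered pairs, and filled circles the genes past an adjusted p of 0.05 with the replicate block: 9 in input and 2, Polr3f and Polr3g, in polysomes.

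Polr3g rose in every pair. It was at 67.2, 63.1, 52.4 and 71.4 CPM in the control input libraries and at 89.2, 86.1, 71.7 and 106.3 CPM in those with RAM siRNA. All 4 RAM siRNA libraries were above all 4 control libraries, and replicate 3 was lowest and replicate 4 highest in both groups. The log2 fold change was 0.48 (SE 0.12, adjusted p = 0.022), and 0.47 with the block (SE 0.046, adjusted p = 9.37e-08). Without control replicate 2 or RAM siRNA replicate 1 its adjusted p was 0.059 or 0.0607.

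Polr3gl, whose product takes the place of that of Polr3g in the other form of polymerase III, was at 16.5, 18.0, 17.8 and 17.8 CPM in control input and at 14.8, 15.9, 17.2 and 14.3 CPM with RAM siRNA. It was lower in each same-numbered pair, but the groups overlapped, and its log2 fold change of -0.17 (SE 0.088) did not pass the test (adjusted p = 0.224, 0.0678 with the block). Per length, the ratio of Polr3g to Polr3gl mRNA was 1.65, 1.43, 1.20 and 1.63 in control input and 2.44, 2.20, 1.69 and 3.03 in RAM siRNA input, so that the groups did not overlap. In polysomes the ratio was higher in both groups, at 3.88, 5.20, 3.15 and 2.50 with control siRNA and 5.58, 8.31, 4.18 and 4.52 with RAM siRNA, where the groups overlapped. No p-value is given for the ratio, which was examined because of its parts.

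The promoters of these sister genes are shown because Polr3g rose and Polr3gl did not pass the test. The difference between the genes was not tested. Both windows are from RefSeq (GRCm38.p6), run from 250 bases before to 50 bases after the start, and are written on the strand of the gene, the minus strand in each case. Capitals mark matches on either strand to TATAAA (the TATA box core), CCAAT (the CCAAT box), GGGCGG (the GC box core), CACGTG (the E-box core) and CCGGAAGT (a core bound by ETS factors). No match overlaps another in these windows. The Polr3g window is at chr13:81710964-81711263 and the Polr3gl window at chr3:96594132-96594431.
Polr3g: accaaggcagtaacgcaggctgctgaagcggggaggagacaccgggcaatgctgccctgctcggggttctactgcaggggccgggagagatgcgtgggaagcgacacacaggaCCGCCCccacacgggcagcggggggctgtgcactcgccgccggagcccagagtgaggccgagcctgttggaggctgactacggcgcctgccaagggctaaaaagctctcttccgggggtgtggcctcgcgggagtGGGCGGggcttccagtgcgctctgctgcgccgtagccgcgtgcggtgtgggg
Polr3gl: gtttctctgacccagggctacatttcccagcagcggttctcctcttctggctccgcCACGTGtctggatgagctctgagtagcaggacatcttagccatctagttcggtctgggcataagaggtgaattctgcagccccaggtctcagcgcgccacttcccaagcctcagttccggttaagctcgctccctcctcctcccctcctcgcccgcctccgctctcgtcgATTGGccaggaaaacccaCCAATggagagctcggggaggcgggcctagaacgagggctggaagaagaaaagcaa
The Polr3g window contained GGGCGG on each strand and 26 CpG dinucleotides in 69.7% G and C. The Polr3gl window contained CACGTG once and CCAAT on each strand, with 16 CpG dinucleotides in 59.3% G and C, and the motifs held by either window were not held by the other. Among 32851 promoter windows of this length, GGGCGG was in 35.7%, CCAAT in 37.4% and CACGTG in 7.15%. Windows were matched by symbol for 22 of the 28 genes, and of these 22, 13 held GGGCGG, 7 CCAAT and 3 CACGTG. The letters TATAAA were in 2 (Polr2a and Polr2c) and in 13.6% of all windows, and CCGGAAGT in 5 and in 3.89%.

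Polr3f fell in each pair. It was at 70.5, 74.1, 69.1 and 73.4 CPM in control input and at 60.8, 56.6, 60.1 and 51.1 CPM in RAM siRNA input. All RAM siRNA libraries were below all control libraries. The log2 fold change was -0.33 (SE 0.071, adjusted p = 0.0109; with the block SE 0.053, adjusted p = 5.00e-05). Polr3b was the other gene of which each RAM siRNA library was below each control library, and Polr3g was the only one of the 28 above, when the groups did not overlap, in either direction, for 18.0% of all tested genes. In a fit of all 16 libraries with 1 estimate of spread, neither Polr3f nor Polr3g passed in input (adjusted p = 0.212 and 0.155).

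**Figure D3:**
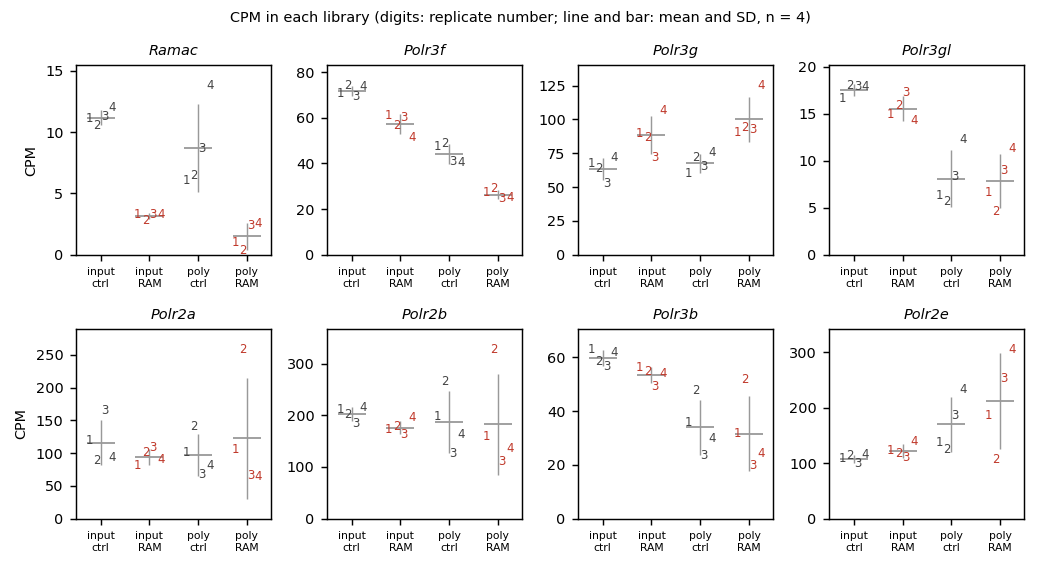
CPM (vertical axes, each from 0) in each of the 16 libraries for Ramac and 7 polymerase genes. Digits are replicate numbers, in black for control and red for RAM siRNA, with the mean and SD (n = 4). Polr3f and Polr3g separate the siRNA groups in both fractions, while Polr2a and Polr2b stand highest in polysome replicate 2.

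Among the catalytic subunits, the 2 largest subunits of an enzyme did not always move together. Polr2a, which encodes the largest subunit of polymerase II with its repeated C-terminal domain, was at 118.7, 88.0, 164.2 and 92.9 CPM in control input and at 80.5, 100.2, 108.4 and 89.4 CPM with RAM siRNA. The groups overlapped through the low control libraries of replicates 2 and 4, and within pairs replicate 2 alone was higher with RAM siRNA. Its log2 fold change was -0.29 (SE 0.17, adjusted p = 0.293), and -0.26 with the block (SE 0.085, adjusted p = 0.0174).

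Polr2b, the second largest subunit of polymerase II, varied less. It was at 210.4, 201.0, 183.2 and 214.2 CPM in control input and at 172.2, 176.8, 162.3 and 194.4 CPM with RAM siRNA. The groups overlapped only through replicates 3 and 4, and all pairs were lower with RAM siRNA. The log2 fold change was -0.20 (SE 0.079, adjusted p = 0.126; with the block SE 0.043, adjusted p = 0.00101).

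In polymerase III, Polr3a and Polr3b, its largest and second largest subunits, differed in direction. Polr3a was at 96.4, 96.8, 95.1 and 87.0 CPM in control and at 108.3, 105.4, 106.8 and 91.2 CPM in RAM siRNA input. Only the replicate 4 library overlapped the controls, and the log2 fold change was 0.13 (SE 0.074, adjusted p = 0.273; 0.0198 with the block). Polr3b was at 62.9, 58.4, 56.4 and 61.7 CPM in control and at 56.2, 54.5, 49.1 and 53.9 CPM in RAM siRNA input, a log2 fold change of -0.17 (SE 0.069, adjusted p = 0.142; 0.00774 with the block). In polymerase I, Polr1a (-0.07, SE 0.068) and Polr1b (-0.01, SE 0.088), the largest and second largest subunits, passed no test in input. Polr1a was at 175.8, 175.7, 165.6 and 168.1 CPM in control and at 171.3, 169.5, 150.6 and 160.9 CPM in RAM siRNA input, and Polr1b at 105.6, 115.3, 103.4 and 120.0 CPM and at 107.9, 110.9, 96.1 and 125.7 CPM.

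Of the 5 subunits common to all 3 enzymes, 4 had values above 0 in input, with a median log2 fold change of 0.14, while 6 of the 7 subunits of polymerase II alone had values below 0, with a median of -0.04. With the block, 2 of the common subunits were called higher and 2 of those of polymerase II alone were called lower, when 20.3% of all genes were called higher and 19.0% lower. The difference between these classes was not tested. Polr2e, a common subunit, was at 106.5, 112.0, 97.8 and 113.9 CPM in control and at 121.3, 116.8, 109.6 and 138.2 CPM in RAM siRNA input (log2 fold change 0.18, SE 0.084, adjusted p = 0.198; 0.00475 with the block). It was higher in all 4 pairs, and the groups overlapped. Polr2k, the common subunit with the lowest level, was at 9.50, 8.10, 7.35 and 10.1 CPM and at 10.4, 10.6, 9.54 and 11.0 CPM, a log2 fold change of 0.24 (SE 0.12, adjusted p = 0.199; 0.0388 with the block). Polr2l was also higher in all pairs, at 25.9, 24.2, 22.6 and 28.5 CPM against 28.9, 27.4, 24.6 and 30.3 CPM, but did not pass either test (0.14, SE 0.094, adjusted p = 0.379; 0.0728 with the block). Polr2f was at 66.3, 69.3, 62.8 and 73.3 CPM and at 70.4, 74.6, 62.7 and 84.8 CPM, higher in 3 of the 4 pairs (0.11, SE 0.091, adjusted p = 0.493; 0.0901 with the block). The common subunit below 0 was Polr2h (-0.08, SE 0.082, adjusted p = 0.597).

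Polr3e, which encodes a further polymerase III subunit, was at 51.9, 50.2, 48.5 and 56.9 CPM in control input and at 58.1, 58.4, 54.1 and 68.2 CPM with RAM siRNA. It was higher in each pair by 0.16 to 0.26, and its log2 fold change was 0.20 (SE 0.084, adjusted p = 0.134; 0.00188 with the block). The other 13 genes, among them Polr1c, Polr1d, Polr2c, Polr2g and Polr3c, passed no test in input, with log2 fold changes from -0.10 (Polr2d) to 0.10 (Polr3d). The lowest adjusted p among them was that of Polr2d with the block, 0.0961. The subunits specific to polymerase I that carry other symbols were examined as a list. With the block, Twistnb (log2 fold change -0.21, SE 0.082, adjusted p = 0.111; 6.89e-04 with the block) and Znrd1 (-0.14, SE 0.078, adjusted p = 0.256; 0.025 with the block) were lower, and Cd3eap was not called (-0.05, SE 0.093).

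An earlier examination of these data found ACTATC more often in 3′ UTRs of genes lower in input and TGCTCAA in those of genes higher, and 6 polymerase genes held either. The sites are shown because genes that moved and genes that did not pass the test carried the same letters. Each is read from the GENCODE M21 transcripts (GRCm38) on the strand of the gene, with the motif in capitals and 10 bases on each side. They lie at chr2:144541392-144541417 (Polr3f, plus strand), chr5:77349189-77349215 (Polr2b, plus), chr7:141472572-141472597 (Polr2l, minus), chr2:181870565-181870590 (Polr3k, plus), chr13:81675317-81675343 (Polr3g, minus) and chr6:71980706-71980732 (Polr1a, plus).
Polr3f: tttcagatttACTATCtggtaggtga
Polr2b: agatactgtgACTATCActatcttgtt
Polr2l: tttggccttgACTATCctggaattca
Polr3k: caacaaagaaACTATCtttgtgagtt
Polr3g: tgagacacacTGCTCAAttctggactt
Polr1a: ctctagagatTGCTCAAaggaagctgc
Of the genes with ACTATC, Polr3f was lower in input (-0.33) and Polr2b was lower with the block (-0.20), whereas Polr3k (-0.06) and Polr2l (0.14) passed no test. Polr2b held ACTATC in tandem, and its first copy continues to ACTATCA. Of the genes with TGCTCAA, Polr3g was at 0.48 and Polr1a at -0.07. Over 12067 tested genes with an annotated 3′ UTR, ACTATC was in 16.04% and in 4 of the 28 polymerase genes. In input, 15.0% of the genes with ACTATC were called lower against 4.56% of those without. TGCTCAA was in 9.44% of genes and in 2 of the 28, and 12.9% of the genes with it were called higher against 6.52% of those without. Both motifs were searched at 6 and at 7 bases, and the lengths shown differ between them. ACTATCA was in 6.12% of genes and in 1 of the 28, Polr2b, so Polr3f held only the shorter form. TGCTCA was in 39.3% and in 7 of the 28. Of these, Polr3b was lower with the block, Polr2e, Polr3a, Polr3e and Polr3g were higher, and Polr1a and Polr3k passed no test. The sequences were found on these same libraries, so the shares do not bear independently on any gene.

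The same comparison was made for polysomal RNA, to see which mRNAs changed among those being translated. Here 0 of 28 polymerase genes passed the test by edgeR without the block, when 0.0234% of all genes were lower and 0% higher. An unadjusted p under 0.05 was found for 2 of the 28, beside 1152 of the 12805 genes tested. With the block 1 gene was lower, Polr3f, and 1 higher, Polr3g, against 4.97% and 9.68% of all genes. In DESeq2 without the block, Polr3f was called. These were also the genes whose RAM siRNA libraries were all below (Polr3f) or all above (Polr3g) the controls, when 6.36% of all genes did not overlap in either direction.

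Polr3f was at 47.3, 48.7, 40.7 and 40.4 CPM in control polysomes and at 27.0, 28.8, 24.4 and 24.7 CPM in RAM siRNA polysomes. The groups did not overlap, and the pairs differed by -0.79, -0.75, -0.72 and -0.70 on the log2 scale. The fitted log2 fold change was -0.75 (SE 0.15, adjusted p = 0.0936; with the block SE 0.11, adjusted p = 2.96e-04). Polr3g was at 59.7, 71.3, 64.5 and 75.4 CPM in control polysomes and at 89.8, 93.7, 92.0 and 124.9 CPM with RAM siRNA (0.56, SE 0.17, adjusted p = 0.288; 0.00337 with the block). Replicate 4 was high within the RAM siRNA group. Polr3gl was at 6.24, 5.56, 8.30 and 12.2 CPM in control and at 6.53, 4.57, 8.92 and 11.2 CPM in RAM siRNA polysomes, with a difference of -0.05 (SE 0.33).

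Most other polymerase genes had wide errors in polysomes, where the replicates differed with the coding length of the gene. Polr2a, with the longest coding sequence of the 28 genes (5913 bases), was at 99.4, 140.5, 66.7 and 80.7 CPM in control polysomes and at 104.6, 257.9, 64.4 and 62.9 CPM with RAM siRNA. Polr3a (4173 bases) was at 38.6, 79.3, 29.7 and 37.0 CPM and at 41.0, 129.7, 25.8 and 31.5 CPM, and Polr1a (5154 bases) at 39.5, 67.1, 25.4 and 35.4 CPM and at 36.9, 98.3, 25.2 and 31.5 CPM. Replicate 2 was highest in both groups for each of these. Polr2b behaved alike, at 196.8, 265.0, 125.7 and 161.6 CPM and at 157.8, 327.4, 109.4 and 134.5 CPM, as did Polr3b, at 35.5, 47.5, 23.4 and 29.7 CPM and at 31.4, 51.5, 19.6 and 24.1 CPM, and Polr1b, at 89.3, 109.6, 50.9 and 82.3 CPM and at 74.0, 127.0, 45.5 and 73.5 CPM.

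Several genes with short coding sequences had their highest polysome library in replicate 4. Polr2e (633 bases) was at 136.2, 124.4, 185.7 and 232.5 CPM in control polysomes and at 185.7, 105.5, 251.5 and 304.6 CPM with RAM siRNA, so that RAM siRNA was higher in replicates 1, 3 and 4 and lower in replicate 2. Polr2k (300 bases) was at 1.23, 1.64, 1.44 and 2.21 CPM and at 1.55, 0.93, 2.85 and 4.18 CPM, and Polr2l (204 bases) at 6.34, 6.26, 6.80 and 9.42 CPM and at 7.56, 6.31, 11.3 and 14.1 CPM. Replicate 4 was highest in both groups for all 3. Polr2f (384 bases) was at 21.3, 21.5, 23.0 and 42.5 CPM and at 23.4, 22.8, 31.1 and 52.3 CPM, again with replicate 4 highest. Polr3e, of middle length (2133 bases), was higher with RAM siRNA in all 4 pairs but passed no test (0.19, SE 0.16), at 48.1, 46.5, 36.5 and 48.6 CPM and at 51.3, 52.6, 43.4 and 57.8 CPM.

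Across the 28 genes, the difference between RAM siRNA and control within a pair fell with coding length in replicates 1, 3 and 4 (Spearman's rho -0.52, -0.77 and -0.76) and rose with it in replicate 2 (0.63). Over 12125 tested genes with a coding length, the values were -0.18, -0.27, -0.29 and 0.54 in the same order. Points within a pair share their libraries, so these values are descriptions only. The part of RNA length or integrity in the polysome differences was not tested.

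**Figure D4:**
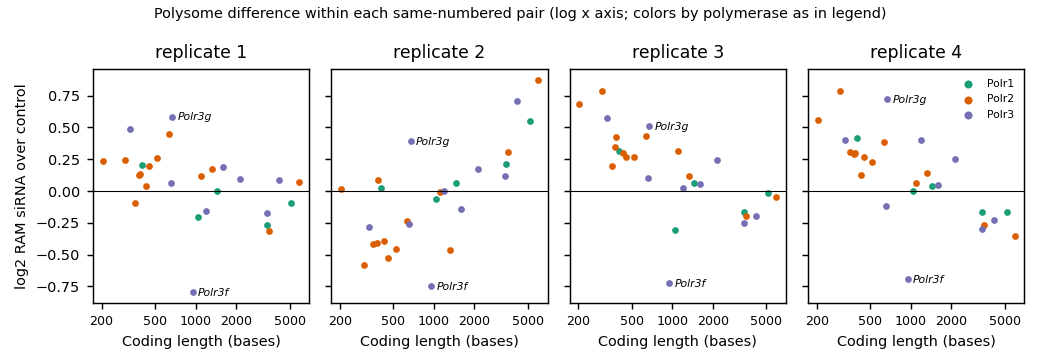
Log2 difference of RAM siRNA over control polysomes (vertical axis, shared) against coding length in bases (horizontal axis, log scale) for 27 polymerase genes, 1 panel for each same-numbered pair. The slope is upward in replicate 2 and downward in replicates 1, 3 and 4, while Polr3f stays between -0.79 and -0.70 and Polr3g between 0.39 and 0.72 in all 4.

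The polysome comparison was therefore repeated without replicate 2, a choice made after seeing the data. With the block, 4 of 28 genes were then lower (Polr1b, Polr2b, Polr3b and Polr3f) and 10 higher (Polr1d, Polr2e, Polr2f, Polr2g, Polr2h, Polr2i, Polr2k, Polr2l, Polr3g and Polr3k), against 14.3% and 21.3% of all genes. The genes called higher had coding sequences of 204 to 672 bases and those called lower of 951 to 3525 bases. Polr3f (-0.75, SE 0.080, adjusted p = 7.86e-07) and Polr3g (0.61, SE 0.077, adjusted p = 4.98e-06) were as large as with all replicates. Without the block and without replicate 2, no polymerase gene was called. By polymerase, the medians over all 4 replicates were 0.04 for Polr1 (SD over pairs 0.064), 0.15 for Polr2 (0.32) and 0.06 for Polr3 genes (0.073), beside 0.06 for all genes. The Polr2 median was -0.39 within the replicate 2 pair and 0.14 to 0.30 in the others, so the polymerases were not separated beyond the spread of the pairs. The lowest and highest values were those of Polr1c (-0.13) and Polr1d (0.28), Polr2b (-0.04) and Polr2k (0.54), and Polr3f and Polr3g.

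Whether RAM siRNA altered polysome loading, the ratio of polysomal to input RNA, was tested as the interaction of siRNA and fraction. Counts were scaled between libraries, so the test concerned loading relative to other genes. A change shared by all mRNAs would not be seen. The paper reports a lower ratio of polysomes to free ribosomes and subunits after RAM siRNA. From sequencing it also reports a small set of genes with changed loading, and reads the effect on loading as global. That set is larger than the calls of the edgeR fits of all replicates given next, and the reason was not tested. For this test the block was the replicate number within each fraction, so input and polysomes of the same extract were not paired. No polymerase gene passed, nor did any other tested gene (0% called by edgeR, with 1 of the 28 and 100 of all genes at an unadjusted p under 0.05), and with the block 0 of 28 were called beside 0.0156% of all genes. The smallest p belonged to Polr3f, whose loading was lower by 0.47 on the log2 scale (-0.47, SE 0.16, adjusted p = 0.9997; with the block SE 0.11, adjusted p = 0.344). The gap between the values of Polr3f in polysomes (-0.75) and in input (-0.33) therefore did not pass the test. With the block and without replicate 2, Polr3f (lower) and Polr3k (higher) passed, against 0.804% and 0.547% of all genes, and DESeq2 with all replicates called neither. For Polr3g the loading difference was 0.04 (SE 0.22). Median differences were -0.04 for Polr1, 0.12 for Polr2 and 0.02 for Polr3 genes, beside 0.0013 for all genes. The extremes were Polr1c (-0.16) and Polr1a (0.23), Polr2c (0.00097) and Polr2a (0.59), and Polr3f and Polr3k (0.37).

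Loading in control cells differed widely within each enzyme. Comparing control polysomes with control input, 14 of 28 genes were lower in polysomes and 7 higher, when 34.3% of all genes were lower and 33.1% higher, and the block gave the same counts. By polymerase, 2 of 5 Polr1, 6 of 13 Polr2 and 6 of 10 Polr3 genes were lower, and 2, 3 and 2 were higher. The medians were -0.31, -0.24 and -0.39 on the log2 scale, beside -0.00080 for all genes. The lowest were the common subunit gene Polr2k (-2.32, SE 0.21, adjusted p = 3.12e-06), Polr1a (-1.92, SE 0.25, adjusted p = 4.19e-05) and Polr2l (-1.71, SE 0.16, adjusted p = 4.18e-06). The highest were Polr2c (1.01, SE 0.13, adjusted p = 4.27e-05) and Polr2g (0.99, SE 0.16, adjusted p = 2.30e-04) in polymerase II and Polr1e (0.96, SE 0.14) and Polr1c (0.96, SE 0.12) in polymerase I. In polymerase III, Polr3gl was lowest (-1.02, SE 0.21, adjusted p = 0.00135), and Polr3c was among those higher in polysomes (0.51, SE 0.11, adjusted p = 0.00194).

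Sister and partner subunits were loaded unequally. Polr3g had a loading of 0.19 (SE 0.13, adjusted p = 0.208), above that of Polr3gl (-1.02) in each of the 4 replicates. The second largest subunit genes were above the largest ones in polymerase I (Polr1b -0.31, Polr1a -1.92) in every replicate, but not in polymerase II (Polr2b -0.0037, Polr2a -0.15), where the replicates of Polr2a ran from -1.21 to 0.81. In polymerase III, Polr3b (-0.71, SE 0.19, adjusted p = 0.00635) and Polr3a (-0.92, SE 0.26, adjusted p = 0.00847) were both lower in polysomes. Polr3f was also lower (-0.59, SE 0.11, adjusted p = 5.94e-04), at -0.38 to -0.73 in the replicates.

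Coding length did not order the genes in a single way. The 15 genes with under 1000 coding bases had a median loading of -0.59 (all such genes, 0.090), the 6 with 1000 to 2000 bases 0.73 (0.28) and the 7 with over 2000 bases -0.31 (-0.31). Over the 28 genes Spearman's rho between loading and coding length was 0.26, and by replicate it was 0.32, 0.56, -0.020 and -0.020. Over 12125 tested genes it was -0.17, and -0.056, 0.058, -0.27 and -0.35 by replicate. Genes over 2000 bases moved most between replicates, from a median of 0.032 in replicate 2 to -1.17 in replicate 3.

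**Figure D5:**
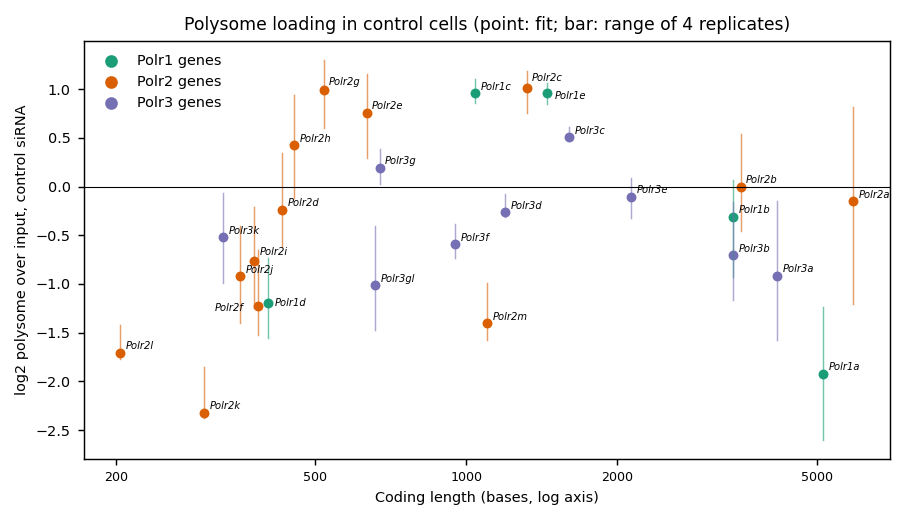
Log2 of polysome over input in control cells (vertical axis) against coding length in bases (horizontal axis, log scale) for 27 polymerase genes, colored by polymerase. Points are the fits and bars the range of the 4 replicates; genes of all 3 enzymes lie above and below 0, from Polr2k at -2.32 to Polr2c at 1.01.

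The factors that work with each enzyme were counted in input from lists chosen for their function. Beside these counts, 5.94% of all tested genes were lower and 6.95% higher, and with the block 19.0% and 20.3%. Of 7 polymerase I factors, 1 was lower and 2 were higher with and without the block. Taf1b, a subunit of the promoter selectivity factor SL1, fell (-0.58, SE 0.075, adjusted p = 5.47e-04), while the SL1 subunits Taf1c (0.36, SE 0.078, adjusted p = 0.0105) and Taf1d (0.31, SE 0.077, adjusted p = 0.0196) rose. Of 17 polymerase III factors, 2 were lower and 1 was higher (5 and 1 with the block). Gtf3c3, a subunit of TFIIIC (-0.53, SE 0.065, adjusted p = 4.67e-04), and Snapc2, of the complex that acts at small nuclear RNA genes (-0.41, SE 0.11, adjusted p = 0.029), were lower, and Gtf3a, which binds the 5S rRNA gene (0.32, SE 0.071, adjusted p = 0.0114), was higher.

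Of 18 general factors of polymerase II, 1 was lower and 0 were higher, near the 5.94% of all genes that were lower (5 and 0 with the block, beside 19.0% and 20.3%), led by Mnat1, the assembly factor of the TFIIH kinase (-0.47, SE 0.11, adjusted p = 0.0139). Of 9 kinases, cyclins and phosphatases of the polymerase II C-terminal domain, 1 was lower and 0 were higher (3 and 0 with the block), with Ctdp1, a phosphatase of this domain, at -0.36 (SE 0.085, adjusted p = 0.0172). Of 6 polymerase assembly factors, 0 were called without the block, and Rpap1 (-0.18, SE 0.075) and Gpn2 (0.18, SE 0.080) were called lower and higher with it. The medians of these lists lay between -0.07 and -0.0080, beside 0.00070 for all genes. In polysomes with the block, which called 4.97% of all genes lower and 9.68% higher, Taf1b, Gtf3c3, Snapc2, Mnat1 and Ctdp1 were lower and Gtf3a was higher, and none was called without it. Taf1b was at -0.61 (SE 0.14) and Snapc2 at -0.69 (SE 0.27) there. In control loading, 34.3% of all genes were lower and 33.1% higher. Of the 6 assembly factors, 5 were higher in polysomes and 0 lower (median 0.67). Of the 18 general factors of polymerase II, 13 were higher and 5 lower (median 0.68). Of the 17 polymerase III factors, 4 were higher and 9 lower (median -0.34). The 9 kinases, cyclins and phosphatases had 4 and 4 (median 0.24), and the 7 polymerase I factors 1 and 2 (median -0.089).

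Some limits of the counts bear on single genes. Exons of 10 of the 28 genes overlap those of a gene on the opposite strand, most in Polr2i (26.8% of its exonic bases, with Tbcb), Polr2c (18.1%, with Dok4) and Polr2j (15.9%, with Lrwd1), and no exon is shared on the same strand. The libraries kept strand, but the strand setting of the counting is not given in the sources used here. Polr2k, at 0.93 to 4.18 CPM in polysomes, had the lowest mean input count of the 28 genes (168.8), which limits the precision of its values.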

How the data were processed

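RNA of 16 libraries was measured by stranded total RNA sequencing after rRNA depletion. The authors mapped reads to GRCm38/mm10 with STAR 2.5.1b, summed them over genes by htseq-count and deposited the raw counts of all libraries. The annotation release is not given in the sources used here. Gene symbols were taken from a reference table (46488 of 46983 IDs matched).

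Genes with at least 1 CPM in at least 10 libraries (12805) were tested with edgeR 4.0.16 quasi-likelihood (TMM, Benjamini-Hochberg, threshold 0.05) in R 4.3.3, without a block. Fits on simulated counts, with independent libraries and a single spread for all genes, recovered known changes of a single size. Neither paired replicates nor smaller changes were simulated. Libraries of the same number are said to come from 4 independent experiments, and their deviations from the group means were correlated (0.31 to 0.64 in input, 0.54 to 0.90 in polysomes, 0.24 to 0.65 between fractions), so the numbers were taken to pair the samples. Fold changes of single pairs used a pseudocount of 0.5 CPM. Alternatives included DESeq2 1.42.0 and limma 3.58.1. Genes named with values in every library were Ramac, the largest and second largest subunits, Polr3g, Polr3gl and the 12 with the smallest p in the blocked input fit; also named were the extremes of each polymerase and up to 2 listed genes a direction. Members and lists were chosen with earlier results of these data known. 1 of the 28 genes enters the counts and medians but is otherwise not reported here.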

Additional observations from a re-analysis of the deposited data

Results flagged for a closer look

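In 112 sets of 4 libraries (28 genes in 4 groups), 12 had a highest or lowest library far from the other 3 by Dixon's criterion, which chance alone meets in about 1 set in 20. In RAM siRNA polysomes of replicate 2, Polr1a stood at 98.3 CPM (others 25.2 to 36.9) and Polr3a at 129.7 CPM (others 25.8 to 41.0). In RAM siRNA polysomes of replicate 4, Polr3d stood at 19.5 CPM (others 14.04 to 14.9) and Polr3g at 124.9 CPM (others 89.8 to 93.7). In control polysomes of replicate 4, Polr2f was at 42.5 CPM (others 21.3 to 23.0), Polr2m at 53.2 CPM (others 34.0 to 37.1) and Polr3c at 62.3 CPM (others 51.1 to 52.4), and in those of replicate 3 Polr3e was at 36.5 CPM (others 46.5 to 48.6). In RAM siRNA input of replicate 4, Polr2g was at 71.2 CPM (others 59.6 to 61.2), Polr2h at 78.8 CPM (others 62.1 to 63.9) and Polr3k at 30.0 CPM (others 22.2 to 23.5), and in control input of replicate 1 Polr3gl was at 16.5 CPM (others 17.8 to 18.0).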

How the results depend on the processing

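Replicate numbers pair the samples, and the replicate block moved the count of polymerase genes called in input from 2 to 9 (5 with DESeq2) and in polysomes from 0 to 2 (2 with DESeq2). It left the counts at 0 for the change of loading and 21 for control loading. With all 16 libraries in 1 fit the counts were 0 in input and 1 in polysomes, and DESeq2 without the block gave 1 in polysomes. Leaving out 1 library gave 1 to 3 calls in input, 0 in polysomes and 19 to 22 in control loading, and moved the polysome medians of Polr1 genes between -0.11 and 0.14 and of Polr3 genes between -0.030 and 0.18. The cause of these shifts was not tested.

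After seeing the data, the block was also fitted without both libraries of a replicate. Input calls were then 6, 7, 6 and 10 without replicates 1, 2, 3 and 4, and Polr1b turned to 0.013 without replicate 3. Without replicate 2, there were 14 calls in polysomes and 2 in the change of loading, the Polr1 median in polysomes was -0.10, and Polr1a (-0.10), Polr2a (-0.11), Polr3a (-0.11) and Polr3gl (0.0069) turned sign. Fewer samples entered these fits. Without the block and replicate 2, the Polr1 median was -0.10, and Polr1a, Polr2a and Polr3a were at -0.10, -0.090 and -0.10.

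Other changes of sign concerned values that did not pass without the block. A filter at 5 CPM put Polr1b in input at 0.000648 (and removed Polr2k). In control loading, Polr2b turned to 0.021 with RLE scaling, 0.13 without a filter and 0.021 with DESeq2, and Polr3e to 0.031 without a filter, where the median of all genes itself moved to -0.18. Over single libraries left out, input values of Polr1b ran from -0.082 to 0.047. In polysomes, Polr1a ran from -0.42 to 0.53, Polr1b from -0.37 to 0.14, Polr2a from -0.32 to 0.58, Polr2b from -0.48 to 0.18, Polr2f from -0.088 to 0.56, Polr3a from -0.50 to 0.71, Polr3b from -0.44 to 0.10 and Polr3gl from -0.30 to 0.22. The loading change of Polr3g ran from -0.091 to 0.20, and control loading of Polr2a from -0.37 to 0.058, Polr2b from -0.20 to 0.18 and Polr3e from -0.15 to 0.017. Polr3f and Polr3g kept their direction in input in all 21 alternatives and passed in 20 and 18 of them. Counts were lowest for Polr2k and Polr3gl (means of 168.8 and 293 in input).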
